A study of Mus musculus with 9 samples.

Results

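The endocannabinoid system of the mouse nucleus accumbens was followed through 8 genes in transcript sequencing of saline, cocaine and cocaine withdrawal. They encode the CB1 receptor (Cnr1), the enzymes that make its lipid ligands (Dagla, Daglb, Napepld) and the enzymes that break them down (Mgll, Abhd6, Abhd12, Faah). The genes were taken by symbol, and all 8 were found among the 21423 genes of the table. The nucleus accumbens lies in the ventral striatum and is a centre of reward processing. Adult male C57BL/6 mice, 2 to 5 months old, received 1 intraperitoneal injection a day for 7 days, either saline (10 ml/kg) or cocaine. The labels give the cocaine dose as 10 or 20 mg/kg and tie neither dose to a sample. Saline and cocaine mice were killed 24 h after the last injection. Withdrawal mice received the same cocaine course and then spent 8 days in the home cage. Each group is 1 pool with an equal share of RNA from 8 mice, made into 1 library that was sequenced on 3 lanes.

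So the 9 samples stand for 3 libraries, and lanes are technical runs. The mean ± SD over lanes given below, and the standard error (SE) of each difference, cover sequencing only. With 1 library per treatment, differences between treatments have no replicate check and no p-value was computed. Levels are RPKM, reads per kilobase of gene model, scaled to the lane's total. Differences are on the log2(RPKM + 0.5) scale, which understates changes of genes with low levels. A gene was called where 2 libraries differed by at least 1.5 times (0.58 on the log2 scale) and their ranges over lanes were separate, and "lanes apart" below means only the second condition. Lane totals ran from 5546362 to 12026754, and each member had between 104 and 4649 reads in a lane.

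Endocannabinoids act backwards across the synapse. A postsynaptic neuron makes 2-arachidonoylglycerol (2-AG) or anandamide on demand from membrane lipids, and the lipid reaches CB1 receptors on the presynaptic terminal, where Gi/o proteins reduce transmitter release. Diacylglycerol lipases make 2-AG, and NAPE-PLD is one of several routes to anandamide. Monoacylglycerol lipase is the main brain enzyme that removes 2-AG and fatty acid amide hydrolase the main one that removes anandamide. In the striatum CB1 is made by medium spiny neurons and by some interneurons, and endocannabinoid signalling takes part in the long-term depression of excitatory inputs there.

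No member was called in any of the 3 comparisons. Of the 14051 genes that averaged 1 RPKM or more, all 8 members among them, 5.33% were called for cocaine against saline (2.93% higher, 2.41% lower), 7.33% for withdrawal against saline (3.96% higher, 3.37% lower) and 1.02% for withdrawal against cocaine (0.47% higher, 0.548% lower). Smaller differences with lanes apart went in both directions. Against saline, Cnr1 and Dagla were higher and Mgll and Daglb lower in the cocaine library as well as in the withdrawal library, and Napepld was higher in cocaine.

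Between cocaine and saline, 5 members had lanes apart (3 higher, 2 lower), where 42.1% of all tested genes did (18.3% higher, 23.9% lower). Between withdrawal and saline there were 4 (2 higher, 2 lower), where 44.2% of tested genes did (18.6% higher, 25.6% lower). With so few members, these shares are near the background. Between withdrawal and cocaine, 3 members had lanes apart (2 higher, 1 lower), where 18.1% of tested genes did (8.66% higher, 9.42% lower). That last count was 5 without withdrawal replicate 1 and 2 with differences centred by GC content, where Cnr1 overlapped. With a lower size limit of 0.32 on the log2 scale, Cnr1 and Napepld were called higher and Mgll lower in cocaine (9.78% and 12.1% of tested genes) and Dagla was called higher in withdrawal (11.1%, with 15.2% called lower). No member passed that limit between withdrawal and cocaine (2.23% higher and 2.42% lower). Both comparisons with saline use the same saline library.

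**Figure D1:**
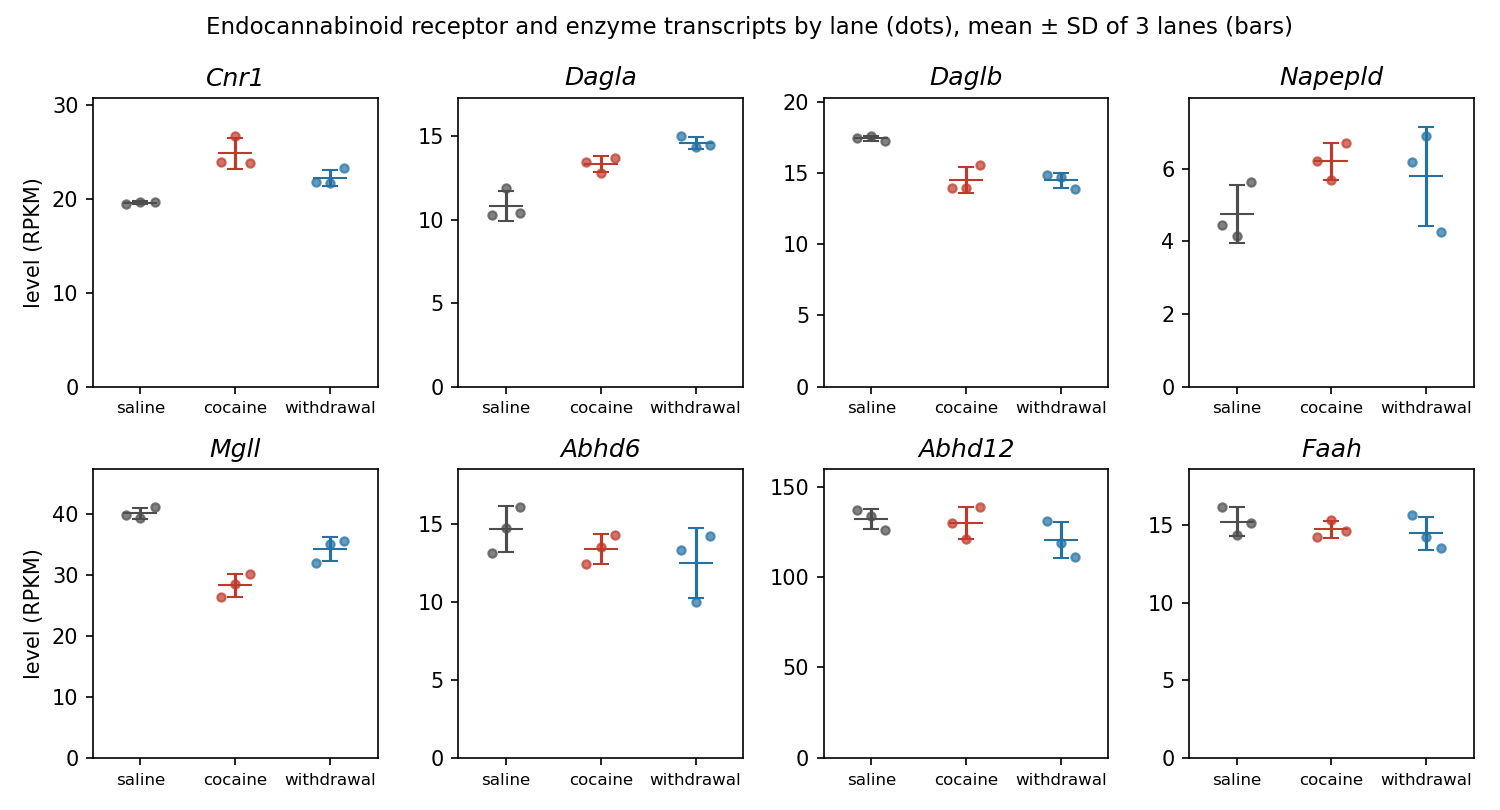
Level of each gene in RPKM (vertical axes, starting at 0) in the saline, cocaine and withdrawal libraries; dots are the 3 lanes of a library and bars their mean ± SD. All Mgll lanes of saline (39.4 to 41.2 RPKM) lie above those of cocaine (26.3 to 30.1 RPKM), while the lanes of Faah and Abhd12 overlap between libraries.

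Cnr1, the receptor gene, stood at 19.4, 19.7 and 19.6 RPKM in the saline lanes. The cocaine lanes gave 23.9, 26.7 and 23.9 RPKM, and the withdrawal lanes 21.7, 21.7 and 23.2 RPKM. All cocaine and withdrawal lanes were above all saline lanes, and the cocaine lanes were above the withdrawal lanes. The difference from saline was 0.33 ± 0.053 (SE) in cocaine, a mean level 26.8% higher, and 0.18 ± 0.033 in withdrawal, 13.4% higher. Withdrawal differed from cocaine by -0.16 ± 0.062, or -0.10 without cocaine replicate 2. Among all tested genes, 88.2% had a lower difference than Cnr1 between cocaine and saline and 75.5% between withdrawal and saline. In this pooled tissue, a change in the share of a cell type and a change in RNA per cell cannot be told apart.

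The sequence upstream of Cnr1 is shown because the receptor gene and Mgll carry differences of opposite sign. It holds the 250 bases before the most upstream of its 3 transcript starts in RefSeq, chr4:33924014-33924263 of GRCm38.p6, plus strand (the expression files were made on mm9), and capitals mark CpG dinucleotides.
Cnr1 promoter: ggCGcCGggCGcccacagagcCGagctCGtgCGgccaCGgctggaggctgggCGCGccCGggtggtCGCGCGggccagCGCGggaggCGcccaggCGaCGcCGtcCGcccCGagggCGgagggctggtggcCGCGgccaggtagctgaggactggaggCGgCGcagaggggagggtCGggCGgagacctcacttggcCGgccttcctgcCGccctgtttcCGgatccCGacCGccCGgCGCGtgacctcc
Its GC content was 79.2% and it held 36 CpG dinucleotides, and 97.4% of the 32851 RefSeq promoter windows of the same length held fewer. The 6 members with a promoter entry (Dagla and Abhd12 have none) were searched on both strands for the cAMP response element TGACGTCA, its half-site TGACG, which is contained in the full element, and the AP-1 site TGANTCA. None of the 3 motifs was present in these 6 windows, whereas 1.55%, 17.8% and 6.75% of all windows held them, respectively. The motifs were picked because CREB and AP-1 factors are known to respond to cocaine in this tissue, and their absence from these windows says nothing of those factors.

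Of the synthesis genes, Dagla encodes the diacylglycerol lipase that makes most 2-AG for synaptic signalling in the adult brain. Its saline lanes were at 10.3, 11.9 and 10.4 RPKM, its cocaine lanes at 13.5, 12.8 and 13.7 RPKM and its withdrawal lanes at 15.03, 14.3 and 14.4 RPKM. The 3 libraries followed each other without overlap, saline lowest and withdrawal highest. Dagla differed from saline by 0.29 ± 0.070 in cocaine (22.9% higher) and by 0.42 ± 0.068 in withdrawal (34.7% higher), and withdrawal from cocaine by 0.13 ± 0.034. The withdrawal difference was the largest of any member against saline in that library.

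Daglb, the second diacylglycerol lipase, which is prominent in microglia, went the other way. It was at 17.4, 17.6 and 17.3 RPKM in saline, 14.0, 13.9 and 15.6 RPKM in cocaine and 14.9, 14.7 and 13.9 RPKM in withdrawal. Saline lay above both other libraries, which overlapped each other. The difference from saline was -0.26 ± 0.051 in cocaine and -0.26 ± 0.032 in withdrawal, a change in mean level of -17.0% in each. Between withdrawal and cocaine it was 0.0012 ± 0.059. The summed level of 6 microglial markers (Aif1, Csf1r, Cx3cr1, Itgam, P2ry12, Tmem119) was 68.8 to 72.0 RPKM over the saline lanes, 67.4 to 68.1 RPKM in cocaine and 64.4 to 72.4 RPKM in withdrawal.

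Napepld, which encodes the phospholipase D that releases anandamide and related N-acylethanolamines, had the lowest level of the 8 genes and the fewest reads, 104 to 237 per lane. Its lanes were at 4.45, 4.14 and 5.64 RPKM in saline, 6.21, 5.69 and 6.70 RPKM in cocaine and 6.19, 6.91 and 4.26 RPKM in withdrawal. The lowest cocaine lane was only just above the highest saline lane, and withdrawal overlapped both. The difference of cocaine from saline was 0.36 ± 0.14, that of withdrawal from saline 0.25 ± 0.23, and that of withdrawal from cocaine -0.11 ± 0.20. The difference of withdrawal from saline was 0.12 without withdrawal replicate 2 and 0.44 without withdrawal replicate 3, and that from cocaine turned to 0.075 without withdrawal replicate 3.

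Mgll, the monoacylglycerol lipase gene, showed the largest difference of the 8 genes. Its saline lanes were at 39.8, 39.4 and 41.2 RPKM, its cocaine lanes at 26.3, 28.5 and 30.1 RPKM and its withdrawal lanes at 31.9, 35.1 and 35.6 RPKM. The 3 libraries did not overlap, with saline highest, cocaine lowest and withdrawal between them. Cocaine differed from saline by -0.50 ± 0.058, a change in mean level of -29.4%, which falls short of the 1.5-times limit. Only 5.70% of tested genes had a lower difference. Withdrawal differed from saline by -0.23 ± 0.052 (-14.7%) and from cocaine by 0.27 ± 0.073 (20.9% higher), and 93.4% of tested genes had a lower difference between withdrawal and cocaine than Mgll. Without any one lane the cocaine difference stayed between -0.54 and -0.45. It was smaller under 75th percentile scaling (-0.43) and with GC centring (-0.40). The withdrawal difference from saline was -0.15 and -0.16 under these 2 settings, respectively. The window upstream of the first of its 2 RefSeq starts, chr6:88724162-88724411 of GRCm38.p6, plus strand, is given for comparison with that of Cnr1, again with CpG in capitals.
Mgll promoter: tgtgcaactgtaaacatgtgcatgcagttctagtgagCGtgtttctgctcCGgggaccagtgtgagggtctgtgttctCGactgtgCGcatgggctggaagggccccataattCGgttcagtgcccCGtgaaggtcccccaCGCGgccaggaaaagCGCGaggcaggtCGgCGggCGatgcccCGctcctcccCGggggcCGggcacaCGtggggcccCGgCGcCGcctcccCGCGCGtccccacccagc
It held 23 CpG dinucleotides, with fewer in 86.7% of all windows, and had a GC content of 68.0%.

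The other hydrolases differed by less. Abhd6, a membrane hydrolase that takes up part of the 2-AG breakdown at postsynaptic sites, had lanes at 13.1, 14.8 and 16.1 RPKM in saline, 12.4, 13.5 and 14.3 RPKM in cocaine and 13.3, 9.97 and 14.2 RPKM in withdrawal. Lanes overlapped in all comparisons. Its differences were -0.12 ± 0.10 for cocaine and -0.23 ± 0.17 for withdrawal against saline, which became 0.050 and -0.040 when differences were centred by gene length. The cocaine value lay between -0.20 and -0.055 without a lane (saline replicates 1 and 3), and the withdrawal value was -0.084 without withdrawal replicate 2. Withdrawal differed from cocaine by -0.11 ± 0.16, which was 0.038 without withdrawal replicate 2.

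Abhd12, which also hydrolyses lysophosphatidylserine and is made by microglia, was at 137, 134 and 126 RPKM in saline, 130, 121 and 139 RPKM in cocaine and 131, 119 and 111 RPKM in withdrawal. Its lanes overlapped throughout. The difference from saline was -0.028 ± 0.067 in cocaine, which turned positive under each of 4 scalings or centrings (0.019 to 0.11), and -0.14 ± 0.076 in withdrawal, where length centring gave 0.013 and leaving out withdrawal replicate 3 gave -0.082. Withdrawal differed from cocaine by -0.11 ± 0.089.

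Faah, the anandamide-degrading amidase, had lanes at 16.2, 14.3 and 15.1 RPKM in saline, 14.2, 15.3 and 14.6 RPKM in cocaine and 15.6, 14.2 and 13.5 RPKM in withdrawal. No pair of libraries was apart. The differences were -0.045 ± 0.057 for cocaine against saline (0.025 under 75th percentile scaling), -0.072 ± 0.076 for withdrawal against saline and -0.027 ± 0.066 for withdrawal against cocaine (0.018 without withdrawal replicate 3). No direction is therefore given for Faah, or for Abhd12 between cocaine and saline.

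**Figure D2:**
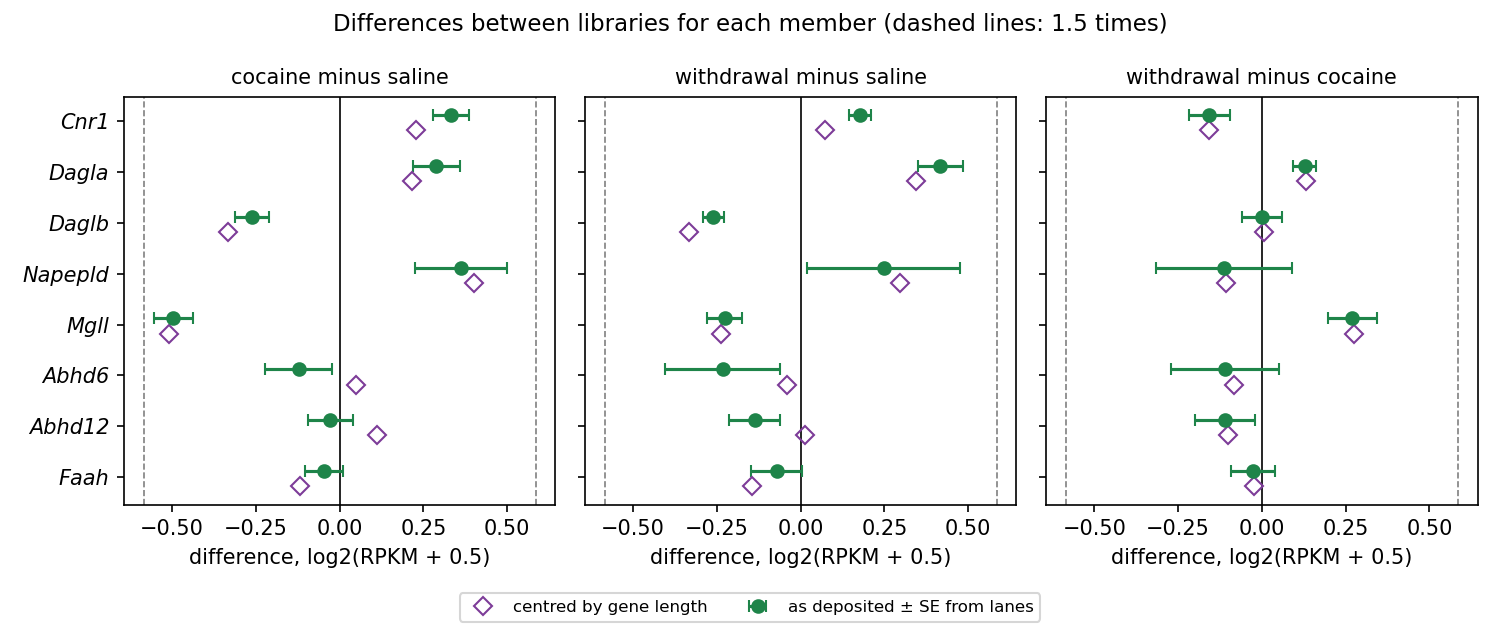
Difference of each gene between 2 libraries on the log2(RPKM + 0.5) scale (horizontal axes), as deposited with the SE from lanes (filled circles) and centred within 20 bins of gene length (open diamonds); dashed lines mark 1.5 times. Mgll in cocaine against saline (-0.50, or -0.51 when centred) lies nearest to a dashed line, and no point passes one.

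The length of the gene model moved with the differences of all genes. Across the 14051 tested genes the Spearman correlation of length with the difference was 0.464 for cocaine against saline, 0.422 for withdrawal against saline and 0.0128 for withdrawal against cocaine, as a description over genes that share the same libraries. Cnr1 (6444 bp), Faah (5753 bp), Dagla (5747 bp), Daglb (5684 bp), Mgll (4868 bp) and Napepld (3954 bp) were longer than the median tested gene (3531 bp), and Abhd12 (2823 bp) and Abhd6 (2157 bp) were shorter. When each difference was set against the median of genes of like length, Mgll stood at -0.51 in cocaine, below all but 0.427% of the 702 genes in its length bin. Daglb was at -0.33 in both cocaine and withdrawal. Dagla was at 0.22 in cocaine and 0.34 in withdrawal, and Napepld at 0.40 in cocaine, above 95.4% of its bin. Cnr1 was at 0.23 in cocaine and 0.072 in withdrawal, where 61.6% of the genes in its bin had a lower difference. The shorter Abhd6 and Abhd12 moved further, Abhd6 to 0.050 and -0.040 and Abhd12 to 0.11 and 0.013 in cocaine and withdrawal. After this centring 3 members were higher and 2 lower with lanes apart in cocaine (16.3% of tested genes in each direction), and 2 were higher and 2 lower in withdrawal (18.6% higher, 18.1% lower).

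**Figure D3:**
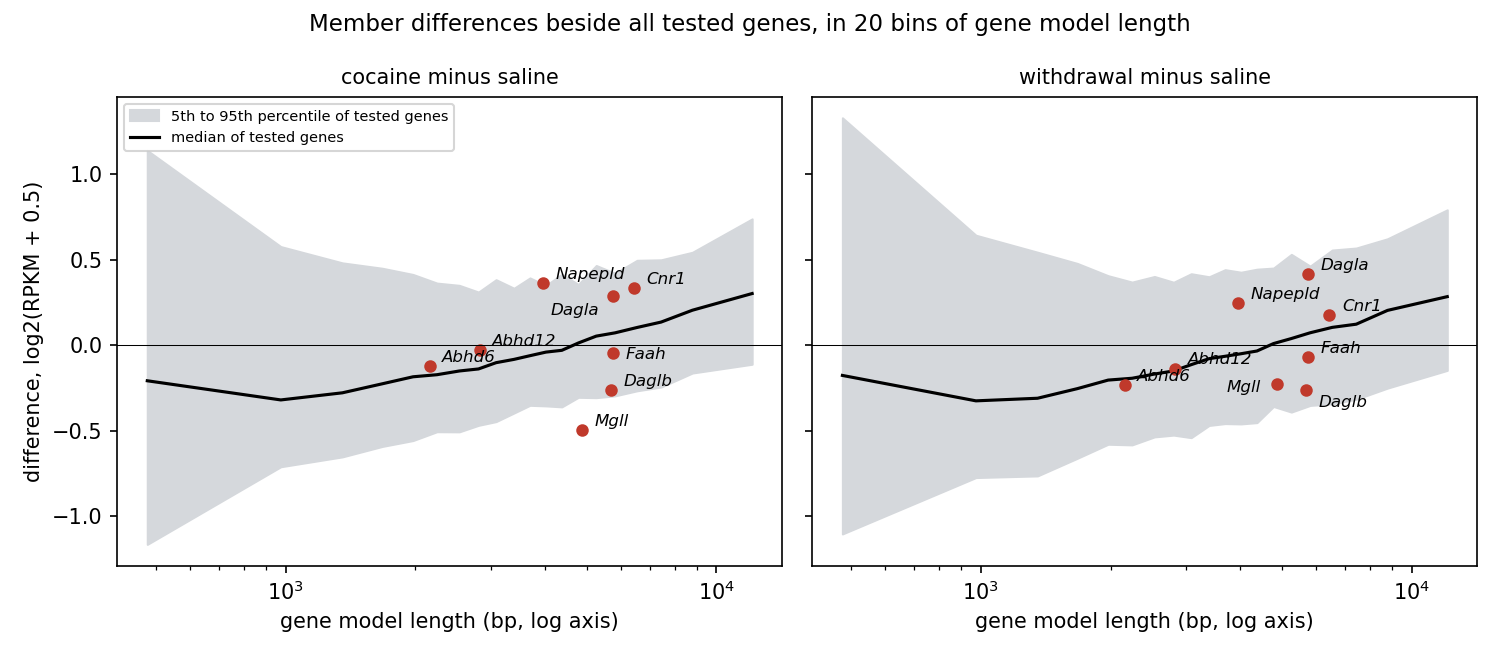
Difference of each gene (red dots, log2 scale) from saline against the length of its gene model (log axis), over the median (line) and the 5th to 95th percentile (grey band) of all tested genes in 20 length bins. In cocaine, Mgll lies below the grey band and Napepld just above it, and in withdrawal all 8 genes lie within it.

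Ratios within a lane do not depend on how the lane was scaled, and were chosen with the values above known. Dagla over Daglb, a pair of nearly equal length, was 0.588, 0.673 and 0.601 in the saline lanes, 0.965, 0.918 and 0.880 in cocaine and 1.01, 0.974 and 1.04 in withdrawal. Saline had more Daglb than Dagla in each lane, and the ratio was 0.621 ± 0.046 (SD, 3 lanes) there against 0.921 ± 0.042 in cocaine and 1.01 ± 0.034 in withdrawal, with no overlap between libraries. Cnr1 over Mgll was 0.489 ± 0.012 in saline, 0.880 ± 0.077 in cocaine and 0.650 ± 0.032 in withdrawal. All 3 libraries were again apart, with cocaine highest. Such ratios can still carry trends of a library with gene length or GC content. Cnr1 and Mgll differ in both (6444 and 4868 bp, 44.9% and 55.3% GC). Dagla and Daglb differ in GC content (58.8% and 49.9%). The share of Mgll in the summed RPKM of Mgll, Abhd6 and Abhd12 was 20.9% to 22.4% over the saline lanes, 15.6% to 17.5% over the cocaine lanes and 18.1% to 22.1% over the withdrawal lanes, so that cocaine lay below both and withdrawal overlapped saline. Napepld over Faah, the pair for anandamide, was 0.275 to 0.373 in saline, 0.372 to 0.458 in cocaine and 0.315 to 0.486 in withdrawal, overlapping in each comparison.

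**Figure D4:**
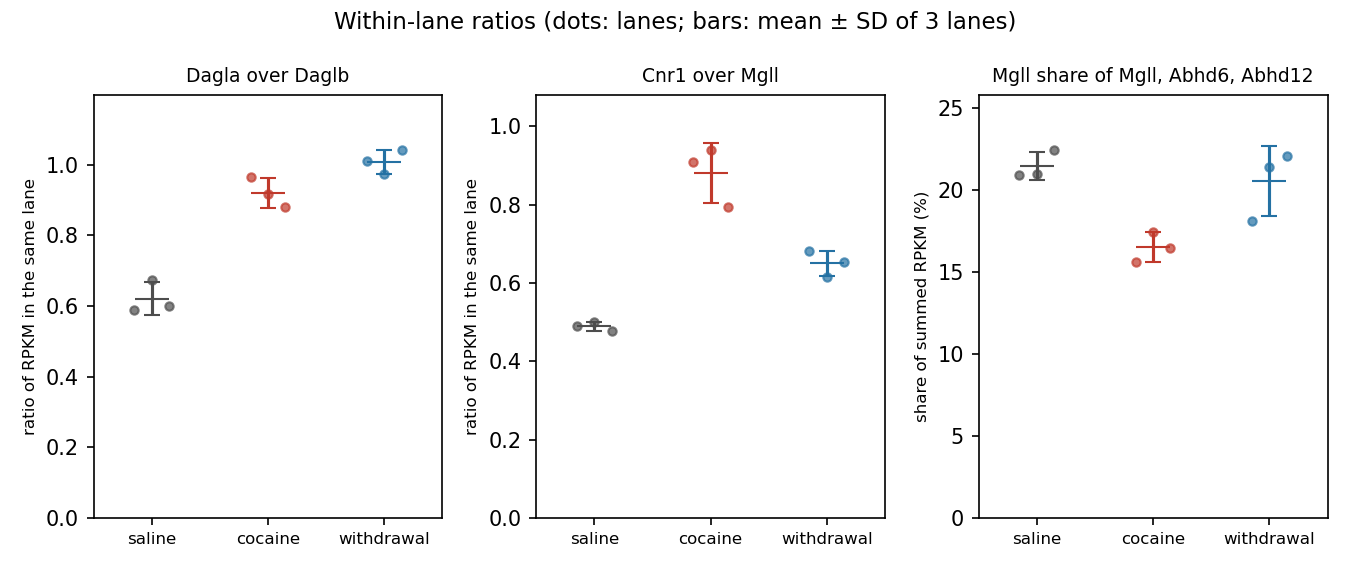
Within-lane ratios of Dagla to Daglb and of Cnr1 to Mgll, and the share of Mgll in the summed level of 3 hydrolases (vertical axes from 0), in the 3 libraries; dots are lanes and bars the mean ± SD. The Dagla to Daglb ratio was 0.621 in saline and 1.01 in withdrawal, and the Cnr1 to Mgll ratio was highest in cocaine at 0.880.

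The order of levels, which are given per length, differed between libraries in the middle ranks. Differences from saline still moved with gene length, so a change of rank between genes of unlike length can carry that trend. Its part in the order was not tested. In the saline library it ran Abhd12 (132 ± 5.5 RPKM), Mgll (40.1 ± 0.94), Cnr1 (19.6 ± 0.14), Daglb (17.5 ± 0.17), Faah (15.2 ± 0.91), Abhd6 (14.7 ± 1.5), Dagla (10.8 ± 0.90) and Napepld (4.74 ± 0.79). Neighbours in this order had separate lanes except Faah and Abhd6. In cocaine Mgll (28.3 ± 1.9) and Cnr1 (24.8 ± 1.6) overlapped, and Faah, Daglb, Abhd6 and Dagla formed a run from 14.7 down to 13.3 RPKM in which each neighbour overlapped the next. In withdrawal Cnr1 (22.2 ± 0.88) was separate from Mgll (34.2 ± 2.0), and Dagla (14.6 ± 0.37), Daglb (14.5 ± 0.54), Faah (14.4 ± 1.1) and Abhd6 (12.5 ± 2.2) overlapped in turn. Dagla thus had rank 7 in saline and cocaine and rank 4 in withdrawal. In the saline library 96.3% of tested genes were below Abhd12, 85.6% below Mgll, 71.2% below Cnr1 and 31.4% below Napepld.

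By distance over the 9 lanes, with each gene set to its own mean, the tested genes most like Cnr1 among the 4525 at 0.5 to 2 times its level were Gnl3l (distance 0.128), Cstf2 (0.148) and Scn1a (0.150), where the median distance was 0.657. In saline, cocaine and withdrawal, Gnl3l had 38.8, 47.3 and 42.9 RPKM and Cstf2 had 21.7, 27.3 and 25.3 RPKM. Scn1a had 19.7, 24.8 and 22.7 RPKM in the same order. The 9 lanes come from 3 libraries, and each gene was set to its own mean. The likeness thus rests on fewer than 3 independent points, with the nearest genes picked from 4525.

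Further genes of the pathway came from a list of 48, of which 35 passed the filter. For cocaine against saline 1 was called higher and 1 lower, and the list's median difference was 0.064 against -0.047 over all tested genes. For withdrawal against saline 1 was called higher and none lower (median 0.034 against -0.056), and for withdrawal against cocaine 1 higher and none lower (-0.043 against -0.0074). Against the background shares of 5.33%, 7.33% and 1.02% of tested genes, 2, 1 and 1 of 35 genes are too few to set the list apart.

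Among other receptors only Gpr55, a lipid receptor that some cannabinoids act on, passed the filter. It was at 1.255, 1.66 and 0.412 RPKM in saline, 1.89, 1.22 and 1.05 RPKM in cocaine and 1.30, 1.84 and 1.01 RPKM in withdrawal, with overlapping lanes. Cnr2, the CB2 receptor of immune cells, was at 0 to 0.0949 RPKM over the 9 lanes and listed at 0 in 4 of them. Trpv1, an ion channel opened by capsaicin and by anandamide, was at 0 to 0.226 RPKM, Gpr119 at 0 to 0.521, Gpr18 at 0 to 0.261 and Pparg at 0 to 0.140 RPKM. Ppara, a nuclear receptor for N-acylethanolamines, reached 0.667 to 1.17 RPKM. Cnr1 was therefore the one receptor of this list above 2 RPKM in these libraries.

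Kcnj6, which encodes the GIRK2 channel that Gi/o-coupled receptors open, was the gene called higher against saline. Its lanes were at 0.754, 0.889 and 1.18 RPKM in saline, 1.67, 2.29 and 1.99 RPKM in cocaine and 2.47, 1.40 and 1.91 RPKM in withdrawal, with 40.7 to 128 reads each. It differed from saline by 0.79 in cocaine and by 0.74 in withdrawal. Its saline mean of 0.94 RPKM was below the 1 RPKM filter. It passed by its mean over the 9 lanes (1.62 RPKM), raised by the libraries where it is high. The filter thus favours calls in this direction, and the calls give no support of their own. The withdrawal call ended without withdrawal replicate 1 (0.579) and with a pseudocount of 1 (0.581). Its partner channel gene Kcnj3 was at 7.00 ± 0.85, 9.28 ± 0.61 and 7.80 ± 1.6 RPKM in saline, cocaine and withdrawal, without a call. Adcy5, the main striatal adenylyl cyclase, which Gi/o proteins inhibit, was at 121 ± 2.7, 126 ± 6.7 and 156 ± 3.6 RPKM, also without a call.

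The 4 intracellular carrier genes, whose proteins can bring lipids to the degrading enzymes, all had a lower level in cocaine than in saline with lanes apart, where 23.9% of tested genes did. Fabp7, a fatty acid binding protein of astrocytes and progenitors, was the called one. It fell from 25.8, 29.9 and 24.9 RPKM in saline to 16.2, 15.5 and 14.2 RPKM in cocaine (-0.79), and stood at 27.1, 22.5 and 23.1 RPKM in withdrawal, which was called higher than cocaine (0.64). Its model is 762 bp long, and centring by length ended the first call (-0.47). The second ended without withdrawal replicate 1 (0.56). Fabp5 went from 166 ± 17 to 114 ± 5.7 RPKM and Fabp3 from 48.2 ± 3.2 to 33.1 ± 3.2 RPKM between saline and cocaine, short of a call. Centred by length, these differences were -0.22 for each and their lanes overlapped. Scp2, the remaining carrier (3478 bp), went from 67.4 ± 5.0 to 50.5 ± 4.2 RPKM (-0.41), also without a call. Centred by length it was at -0.33 with lanes still apart. After this centring 0 carriers were higher and 2 lower by lanes in cocaine (16.3% of tested genes in each direction). Fabp5 was past the limit without saline replicate 1 (-0.63) and Fabp3 without cocaine replicate 1 (-0.61). Fabp5 has near-identical copies in the genome, so its level is uncertain.

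The 9 receptor and phospholipase genes upstream of 2-AG synthesis had no call, with 6 higher and 0 lower by lanes between cocaine and saline (18.3% of tested genes were higher by lanes) and a median of 0.27. Their models are mostly long, and after length centring 2 were higher (Grm5 and the muscarinic receptor gene Chrm3) and 1 lower (the phospholipase gene Plcb4), with a median of 0.031. Between withdrawal and saline 3 were higher and 0 lower by lanes (18.6% and 25.6% of tested genes), with a median of 0.15, and 2 and 0 after length centring, with a median of 0.047. Grm5, the metabotropic glutamate receptor that drives 2-AG release in medium spiny neurons, was at 36.7 ± 3.9 RPKM in saline, 52.5 ± 2.1 in cocaine and 51.2 ± 5.2 in withdrawal. Its difference of 0.52 in cocaine was past the limit under 75th percentile scaling (0.586) and without saline replicate 1 (0.594), and was 0.31 when centred by length. Abhd2, another serine hydrolase that can cleave 2-AG, was at 8.52 ± 0.24, 11.03 ± 0.48 and 12.7 ± 0.32 RPKM in saline, cocaine and withdrawal. Its withdrawal difference of 0.55 was past the limit with the median difference set to 0 (0.61), under 75th percentile scaling (0.62) and with GC centring (0.60). Its model is 10571 bp long, and length centring gave 0.27 for that difference and took the cocaine difference from 0.35 to 0.052. Between withdrawal and cocaine the 9 upstream genes had 0 higher and 1 lower by lanes (8.66% and 9.42% of tested genes).

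**Figure D5:**
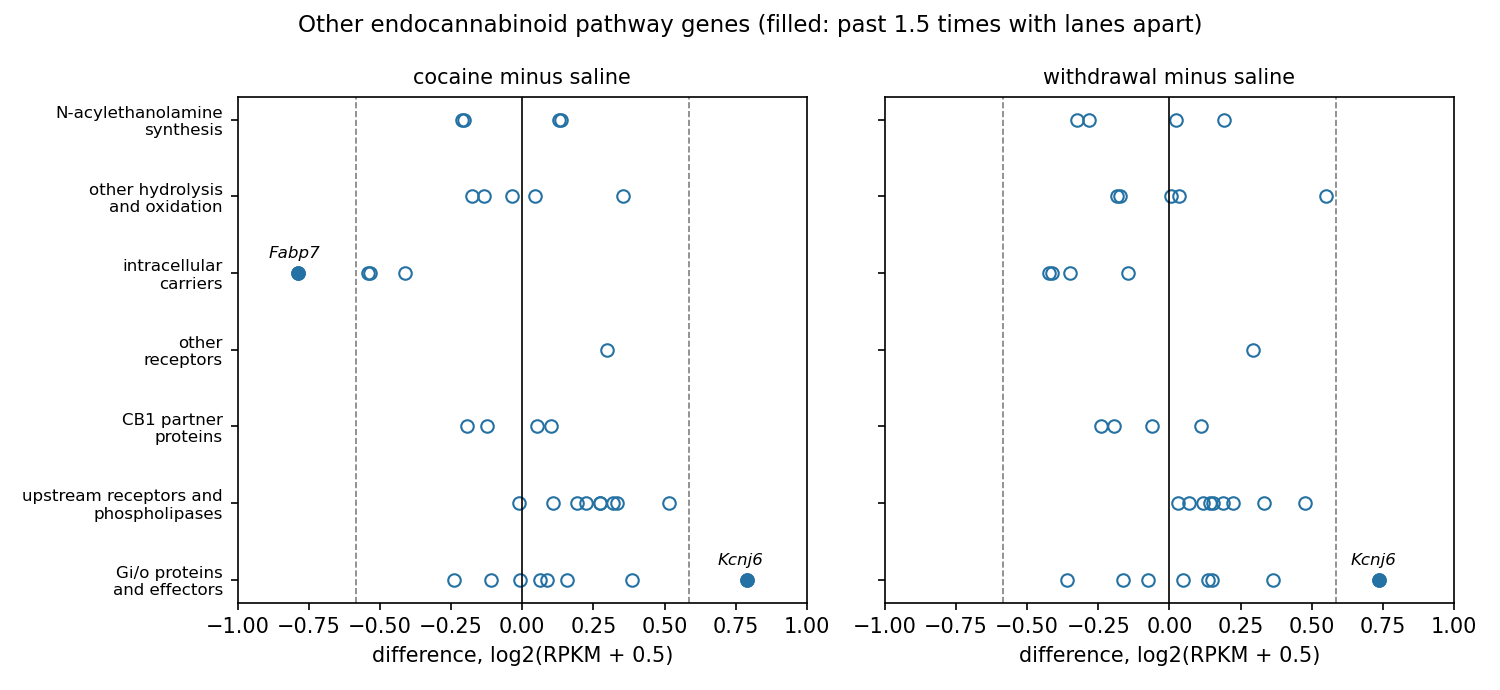
Difference from saline on the log2(RPKM + 0.5) scale (horizontal axes) of the 35 further pathway genes that passed the filter, by role, with filled dots for called genes and dashed lines at 1.5 times. Fabp7 and Kcnj6 are the called genes in cocaine and Kcnj6 in withdrawal, and all 4 carriers lie left of 0 in both.

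Markers of the cell types in the tissue differed between libraries as well, and their part in the differences above was not tested. Levels and counts of every marker list here and below are as deposited, without length centring. Differences from saline rose with gene length across the tested genes, and marker differences can carry that trend. Sums below are ranges over lanes for saline, cocaine and withdrawal in that order, and a sum follows its most abundant genes. The 10 medium spiny neuron markers were all present, with sums of 2051 to 2146, 1522 to 1602 and 1832 to 1849 RPKM, of which Penk (1018 ± 39 RPKM in saline) and Ppp1r1b (655 ± 16) made up most. With lanes apart, 1 of the 10 was higher and 6 lower in cocaine against saline, and 3 were higher and 3 lower in withdrawal. Between withdrawal and cocaine, 10 of these 10 were higher and 0 lower, where 8.66% of tested genes were higher and 9.42% lower. Against saline, 18.3% of tested genes were higher and 23.9% lower by lanes in cocaine, and 18.6% and 25.6% in withdrawal. These shares against saline stand beside the counts of every marker list here and below. The 6 cortical projection neuron markers summed to 22.1 to 24.7, 8.12 to 10.9 and 6.03 to 7.86 RPKM, led by Slc17a7.

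The 7 interneuron markers summed to 384 to 403, 330 to 346 and 310 to 342 RPKM, with 0 higher and 4 lower by lanes in cocaine and 1 higher and 5 lower in withdrawal. Cck, which marks a CB1-rich interneuron class and is also made by cortical neurons, was at 44.3 ± 7.2, 25.1 ± 0.86 and 20.7 ± 4.6 RPKM. Others differed less or went the other way: Sst was at 241 ± 3.0, 223 ± 11 and 220.1 ± 4.9 RPKM, Lhx6 at 18.5 ± 2.0, 18.99 ± 0.97 and 21.2 ± 1.5 RPKM, and Chat at 3.14 ± 0.31, 3.44 ± 0.43 and 3.89 ± 0.39 RPKM.

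The 6 astrocyte markers summed to 816 to 845, 736 to 746 and 655 to 688 RPKM, a sum led by Aldoc (604 ± 14, 515 ± 8.0 and 467 ± 15 RPKM). By lanes 4 were lower and 2 higher in each comparison with saline, the higher ones being Aqp4 (10.8 ± 1.4, 14.0 ± 1.3 and 14.1 ± 0.16 RPKM) and Slc1a3 (72.8 ± 0.86, 86.1 ± 0.85 and 78.7 ± 2.5 RPKM). The 6 oligodendrocyte markers summed to 1830 to 1853, 1706 to 1756 and 1656 to 1668 RPKM, with 0 higher and 3 lower by lanes in cocaine and 0 higher and 4 lower in withdrawal. The 6 endothelial markers summed to 40.1 to 42.2, 54.9 to 60.5 and 61.8 to 71.7 RPKM, with 6 and 5 higher by lanes and 0 lower. The 4 choroid plexus markers came to 6.43 to 9.91, 12.3 to 16.7 and 6.70 to 9.47 RPKM. No marker of these lists was at 0 in all lanes of a library.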

How the data were processed

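Poly(A) RNA was fragmented, copied with random primers and sequenced with 37 cycles from each end of inserts of about 200 bp, per the labels' protocols. The authors deposited RPKM values per lane and 1 composite per library, with lane totals in the file headers. The submitters' processing notes name Bowtie 0.12.7 and the mm9 build. Neither the counter nor the annotation is given in the sources used here. The 21 value columns of the other deposited files equal those of the joint table. Values times lane total and model length were integer multiples of 1/37 read (largest relative gap 8.54e-14), so reads are not whole and no count test was run; the smallest such length was taken as the model length, multiplied by 37 for 114 genes (16 tested) where the reference asked for it. GC content came from GENCODE transcripts for 98.0% of tested genes.

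Groups and lane numbers came from sample titles. Log2(RPKM + 0.5) values were averaged over lanes and genes averaging 1 RPKM or more over the 9 lanes were compared with Python 3.11.15 and pandas 2.3.3, after a check on simulated data. Lanes of 1 library are technical, and n is 1 per group. Members, lists and the named-gene rule (all members, called pathway genes and the 2 largest others per comparison, the receptors, and the 3 genes nearest to Cnr1) were chosen with earlier results of these data known. Alternatives were the pseudocount (0.1, 1), the filter (none, 5 RPKM), the size limit (0.32 on the log2 scale, and 2 times), no lane condition, 4 scalings or centrings, the composite, omission of single lanes, and the lane number as a block.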

Additional observations from a re-analysis of the deposited data

How the results depend on the processing

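No member was called under any alternative except the lower size limit (0.32 on the log2 scale), which gave 3 calls for cocaine against saline (Cnr1 and Napepld higher, Mgll lower) and 1 for withdrawal against saline (Dagla higher). At that limit, calls with lanes apart made up 9.78% of tested genes higher and 12.1% lower in cocaine, and 11.1% and 15.2% in withdrawal. Of the 24 member differences, 16 kept their sign under all 19 alternatives and 8 did not, all with overlapping lanes. The filters, size limits, lane condition and replicate block leave a difference as it is. Only the pseudocounts, scalings or centrings, the composite and the omission of lanes could change a sign. Members with lanes apart, an alternative set added after seeing the data, numbered 5 to 6, 4 to 6 and 3 to 5 without a lane in the 3 comparisons in the order of the report. Omitting a lane can only narrow the range of a library. These counts could therefore rise but not fall, and they are no check of stability. The composite left every member at the same rank of level in each library.

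Pathway genes called for cocaine against saline were 9 at that lower limit, 0 at 2 times, 1 with the filter at 5 RPKM, 1 centred by gene length and 2 to 4 without a lane. For withdrawal against saline they were 10 at that lower limit, 0 at 2 times, 0 with a pseudocount of 1, 0 with the filter at 5 RPKM, 2 with the median difference set to 0, 2 under 75th percentile scaling, 2 centred by GC content and 0 to 1 without a lane. For withdrawal against cocaine they were 0 at 2 times and 0 to 1 without a lane. The 5 RPKM filter removes Kcnj6; the cause of the other changes was not tested.

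The lane numbers did not pair the libraries: same-numbered lanes had correlations of deviations from -0.0512 to 0.0764, and others from -0.0642 to 0.0442. With the lane number as a replicate block, 0 members and 2, 1 and 1 pathway genes were called in the 3 comparisons, as without it. The same counts were called with no lane condition at all. The block could therefore not change them, and its result says nothing of pairing. With 1 pooled library per treatment, neither animal-to-animal spread nor treatment error can be estimated.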
